A study of Xenopus tropicalis with 30 samples.

Results

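Transcription start sites of adult female western clawed frogs, Xenopus tropicalis, were read both in single animals and in pooled RNA by WTSS-seq, which sequences the 5′ ends of transcripts and so counts how often transcription began at each place in the genome. The libraries described here are those of 6 single females and 2 libraries of a female pool, 8 of the 30 samples in the series, and they were chosen by assay and sex from the labels and column names alone. All were made from whole adult bodies, with total RNA taken up in Trizol, ribosomal RNA depleted, and the product of first-strand synthesis selected by size and amplified by PCR. No strain, treatment or age is given, and every group shares this preparation. The pool holds the RNA of 3 adult females mixed before library preparation and was prepared as a library on 2 occasions, so its 2 libraries, called pool repeats 1 and 2 below, are 1 biological sample. The labels do not say whether the 3 pooled females are among the 6. The 6 females are separate animals with 1 library each, so the spread between females holds both animal and library. The question is which start sites a pool shows or loses against single animals, and which start sites vary most among animals.

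A start site is where RNA polymerase II begins a transcript. Most genes have more than 1 start site, often spread over a cluster of neighbouring bases, and the choice among them sets the 5′ end of the RNA and can set the start of the protein. In whole bodies every tissue adds its own start sites, so a site used by a small organ or in 1 physiological state is seen at a low level. Pooling RNA before preparation gives a level averaged over the pooled animals, so a start site used by 1 of them stays in the pool at a diluted level.

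The deposited table lists 69857 clusters of start sites with whole-number counts, and 69831 remained after 1 unplaced scaffold with 26 clusters was left out. That scaffold held 67.2% of the counts of female 3, 15.5% of those of female 4 and between 1.56% and 3.74% in the other libraries. Without it the females had between 1968673 and 6123955 counts, pool repeat 1 had 1863504 and pool repeat 2 had 9049977. Clusters enter the table at a total of 25 counts over all libraries of the study, and 15773 of the 69831 reach that total only through the counts of pool repeat 2, against 998 to 3741 for single females and 1931 for pool repeat 1. The files name no genes and no genome build, so sites are given by sequence, strand and position, no gene, exon or UTR is assigned, and tissue and sex were not checked against marker genes. Levels are counts per 1000000 counts (CPM), scaled between the 8 libraries by edgeR's TMM factors, which lay between 0.793 and 0.912 in 5 females, at 1.22 in female 3 and at 1.193 and 1.498 in the pool repeats. In what follows, results that rest on female 3 are given with and without it, since its library stood apart from the other 5.

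At the depth of the shallowest library and at 1 count or more, the pool libraries held more start sites than any single female. Drawn down to the 1863504 counts of the shallowest library, the females were expected to show 43169, 42155, 45007, 44531, 44910 and 43763 sites, a mean of 43922 ± 1117 (SD, n = 6). Pool repeat 1 showed 49158 sites and pool repeat 2 showed 55087. Both repeats lay above all 6 females, and they differed from each other by more than the whole range of the females. At 3 counts or more female 3 came near repeat 1, with 33006 sites against 33487. At 5 or more female 3 passed repeat 1, with 25794 against 25071. Repeat 2 stayed above all 6 females, with 43125 and 33770 sites, and the other 5 females stayed below both repeats. At 1 count or more, the difference is smaller among sites that the table lists whatever these 8 libraries add. Of 34488 such sites the females held between 21572 and 23454 at the common depth, pool repeat 1 held 24319 and pool repeat 2 held 25001. These sites are listed through male libraries and a CAGE library, another 5′-end assay, which by its label was also made from a female pool. The part of this in the lead of the pool was not tested. With 1 pool against 6 animals, an exact permutation test cannot give a p under 0.143, so none is given.

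**Figure D1:**
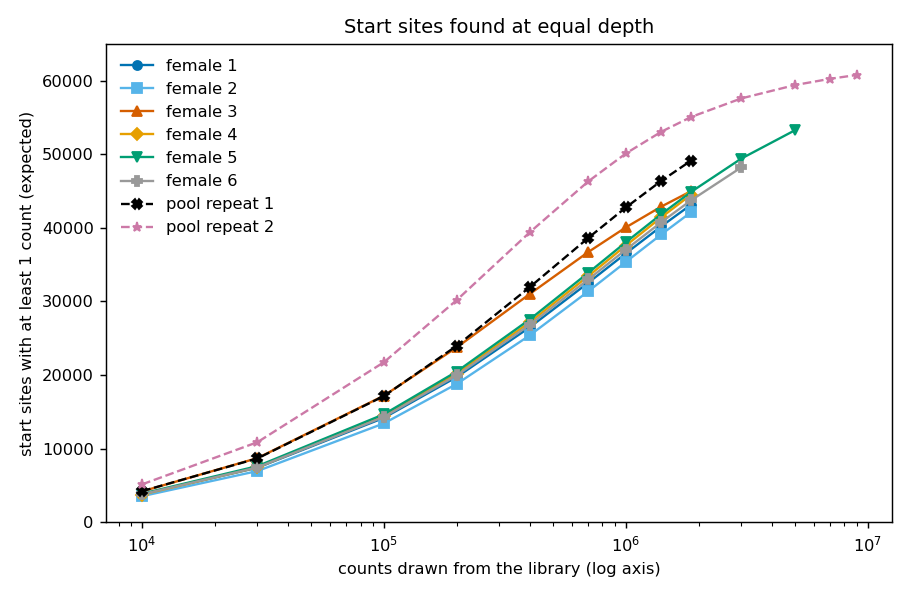
Expected number of start sites with at least 1 count (vertical axis) against the number of counts drawn from each library (horizontal log axis), with 1 line per library, solid for the 6 females and dashed for the pool repeats. At 1863504 counts the females lie between 42155 and 45007 sites, pool repeat 1 at 49158 and pool repeat 2 at 55087.

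Counts were spread over more sites in pool repeat 2 than in any other library. The sites needed to make up 50% of the counts numbered 312 to 443 in the females, 477 in pool repeat 1 and 1044 in pool repeat 2. The 100 highest sites took 28.7% to 34.7% of the counts in females, 31.5% in pool repeat 1 and 23.1% in pool repeat 2. Clusters in the widest class, above 300 bases, the form of many broadly used promoters, held 55.5% to 57.1% of the counts in females, 54.9% in pool repeat 1 and 50.7% in pool repeat 2. Sites with another site within 2000 bases on the same strand held 54.0% to 55.4% of the counts in females. In the pool repeats they held 59.9% and 61.5%, above all 6 animals in both. Whether a site has such a neighbour depends on the sites listed, of which 15773 are listed only through pool repeat 2. The pool thus helps to form this class, and the part of this in its share was not tested.

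Nearly every site that all 6 females shared was also in the pool. Of the 26138 sites with counts in all 6 females, 99.4% had counts in at least 1 pool repeat (95% Wilson interval 99.3% to 99.5%, for counting error only, as for all intervals here), and 164 had none. The share was lower the fewer females showed the site, at 96.4% for 5 females, 94.4% for 4, 90.8% for 3, 83.8% for 2 and 74.5% for 1. Sites seen in exactly 1 female numbered 6003, and pool repeat 1 showed 36.5% of them and pool repeat 2, at its greater depth, 66.1%. In the other direction, 2770 sites with counts in the pool had none in any female, 4.35% of the 63650 pool sites. Conversely 4296 sites, 6.59% of the 65176 female sites, had none in the pool. This order turned with the count asked for: at 3 counts or more the shares were 14.9% of pool sites and 9.14% of female sites, and at 5 or more 26.2% and 11.6%. These are raw counts in libraries of unequal depth, with pool repeat 2 the deepest. Among the sites that the table lists whatever these 8 libraries add, the shares were 4.55% of 29528 pool sites and 9.84% of 31260 female sites. These are at 1 count or more, where all sites had the same order. Whether the order turns at 3 or 5 counts among these sites was not tested. Without pool repeat 2, 26.2% of female sites had no counts in the pool and 2.19% of pool sites none in females, and without female 5 the latter was 6.90%. A further 1885 sites had counts in none of the 8 libraries.

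The sites missing from the pool were mostly low ones. Among the sites of a single female under 1 CPM, between 5.32% and 8.70% were at 0 in both pool repeats, and at 20 CPM or more between 0.320% and 0.854%. Another single animal served as the comparison for how many sites any 1 library misses. At the common depth, pool repeat 1 missed 3.72% of the sites at 5 CPM or more in female 1, and the other 5 females missed 0.729% to 4.28%. For female 5 the share was 3.01% in pool repeat 1, 4.72% in pool repeat 2 and 2.83% to 6.69% in the other females. For female 4 it was 6.46% in pool repeat 1, above the 2.92% to 4.74% of the other females, and 4.34% in pool repeat 2. For female 3 both pool repeats missed less, 3.55% and 3.61%, than any of the other 5 females, at 4.41% to 6.84%. Which animals formed the pool cannot be read from these shares.

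Pool repeats 1 and 2 differed from each other more than most pairs of animals did. Over the 9399 sites that averaged at least 10 CPM, the median absolute log2 difference between the repeats was 0.82, and 41.7% of sites differed by more than a factor of 2. Female 1 and female 6, the closest pair, had a median of 0.33 and 9.15% of sites beyond that factor. The 10 pairs among the 5 females other than female 3 lay between 0.33 and 0.55, all below the repeats, and the 5 pairs with female 3 lay between 1.11 and 1.29. The closest partner of female 3 was pool repeat 1, at 0.56 with a Spearman correlation across sites of 0.769, and its distance to pool repeat 2 was 0.88. Every other female lay between 0.94 and 1.21 from both repeats. The biological coefficient of variation fitted by edgeR was 0.675 for the 2 repeats, 0.647 for the 6 females and 0.502 without female 3. Per the study's design the repeats share 1 RNA pool, and the source of their distance was not tested.

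**Figure D2:**
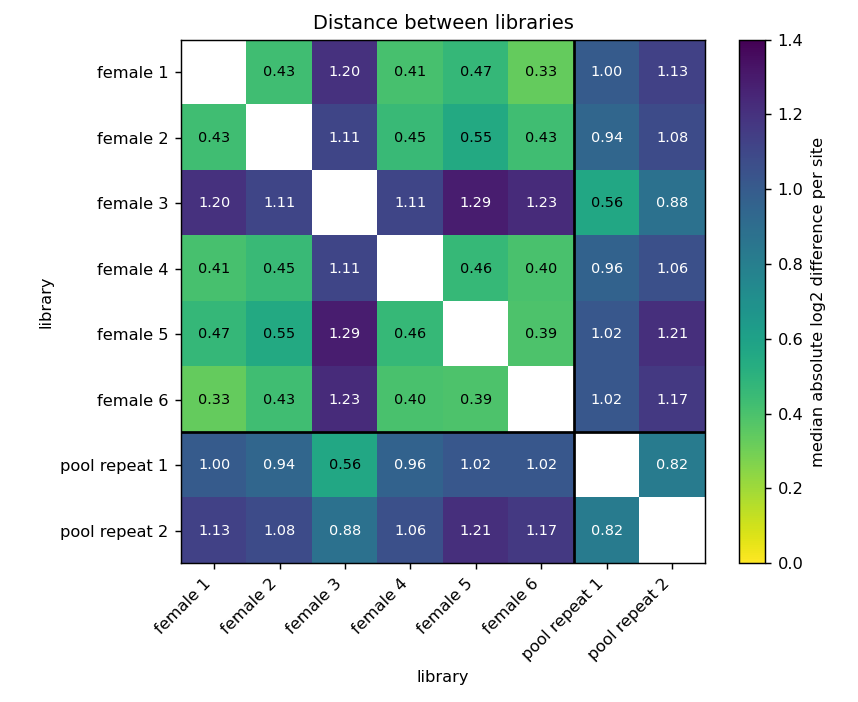
Median absolute log2 difference in level over 9399 start sites for every pair of libraries, with females 1 to 6 above and to the left of the black lines and the pool repeats below and to the right. Female 3 lies at 1.11 to 1.29 from the other females and at 0.56 from pool repeat 1, and the 2 repeats lie 0.82 apart.

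The difference between the repeats was not the same in all classes of female mean level. At a female mean of 100 CPM or more, repeat 1 was at least 2-fold higher at 33.4% of 1631 sites and repeat 2 at 13.4%. At 10 to 100 CPM the shares were 21.6% of 7290 sites for repeat 1 and 18.2% for repeat 2. Under 10 CPM repeat 2 was at least 2-fold higher at 34.5% of 478 sites and repeat 1 at 18.4%. These 478 sites reached a mean of 10 CPM over the 8 libraries only through the pool repeats. They were thus chosen on the values compared, and no order is read from them. At the 5 steadiest sites among females, those with the smallest SD at a mean of 100 CPM or more, repeat 1 was likewise the higher. On chromosome 4, minus strand, position 101535519, the 6 females had 413, 410, 372, 373, 387 and 421 CPM, whereas pool repeat 1 had 611 and pool repeat 2 had 86.5. On chromosome 1, minus strand, position 144559445, they had 665, 602, 584, 661, 546 and 607 CPM, pool repeat 1 had 1016 and pool repeat 2 had 62.7. At both sites repeat 1 lay above and repeat 2 below all 6 females, so a site that hardly differed between animals differed widely between the 2 pool libraries. The site on chromosome 9, plus strand, position 38072184, had 166 to 203 CPM in females and 258 and 41.6 CPM in the repeats. That on chromosome 1, plus strand, position 39143002, had 106 to 131 CPM in females and 192 and 31.0 CPM in the repeats. The remaining steady site, on chromosome 1, plus strand, position 77051833, kept repeat 1 inside the females' range, at 313 CPM against 262 to 315, and had repeat 2 at 209 CPM. These sites were chosen for being steady, which narrows the spread against which the pool is set. With all 6 females none of the 5 was called by edgeR. Without female 3 the sites at 101535519, 38072184 and 144559445 were called lower in the summed pool (log2 differences of -1.39, -1.41 and -1.72). The library total of that sum comes mostly from repeat 2, with 9049977 counts against 1863504 in repeat 1. At these sites repeat 1 nonetheless gave more counts than repeat 2 (1358 and 1172, 573 and 564, 2258 and 850). By level repeat 1 lay above all 6 females at each of them. The calls are not given as support, since they set the pool against a spread chosen to be small.

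Start sites high in 1 animal were looked for in the pool, though the labels do not say whether that animal is in it. Sites of 1 female were taken as those at 5 CPM or more in it and at least 10-fold above each of the other 5 females, after adding 0.5 CPM. There were 637, with 249 in female 5, 135 in female 3, 121 in female 2, 116 in female 4 and 8 each in females 1 and 6. The sites of females 2 to 5 were narrow, with median widths of 29 to 56 bases against 287 bases for all sites at a female mean of 10 CPM or more. That group is higher: the sites of females 2 to 5 had median female means of 3.11 to 4.04 CPM, and all sites seen in exactly 1 and 2 females had median widths of 63 and 68 bases. They had a poly(A) site within 20000 bases downstream on the same strand in 50.9% to 60.7% of cases, against 87.0% of all such sites. The numbers depend on the scaling: by library totals alone female 3 had 249 such sites and female 5 had 190.

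The repeats differed in whose sites they showed. Of the 116 sites of female 4, pool repeat 1 had counts at 18.1% (95% Wilson interval 12.2% to 26.1%) and pool repeat 2 at 85.3% (77.8% to 90.6%), or 76.4% when drawn down to the depth of repeat 1. Of the 249 sites of female 5, the order was turned, with 68.3% (62.3% to 73.7%) in repeat 1 and 45.8% (39.7% to 52.0%), or 36.5% at equal depth, in repeat 2. Other single females at the common depth showed 20.9% to 39.0% of the sites of female 4 and 19.7% to 35.5% of those of female 5. For female 4, repeat 2 lay above and repeat 1 below every other single animal. For female 5, repeat 1 lay above and repeat 2 about level with the highest of them. The rule holds the other 5 females low at these sites and asks nothing of the pool. A pool library above them is thus partly set by the choice of sites and is not given as support. Equal parts of 3 animals would leave a site of 1 of them at 33.3% of its level. At that level or more stood 22 sites of female 4 in repeat 2 and 0 in repeat 1, and 51 sites of female 5 in repeat 1 and 2 in repeat 2. Female 3 had 29 of its 135 sites at that level in repeat 1 and 6 in repeat 2. For female 2 the shares with counts were 24.8% in repeat 1 and 55.4%, or 43.7% at equal depth, in repeat 2. At 33.3% of its level or more stood 3 sites in repeat 1 and 1 site in repeat 2.

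**Figure D3:**
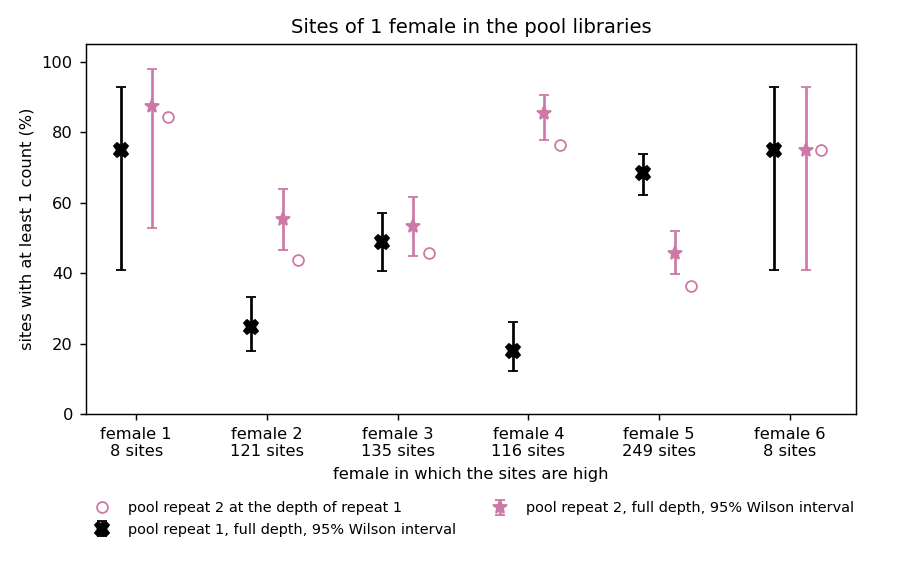
Share of the sites high in 1 female (percent, vertical axis) that had at least 1 count in pool repeat 1 (crosses) and pool repeat 2 (stars), by female, with 95% Wilson intervals, and for repeat 2 also at the depth of repeat 1 (open circles). Sites of female 4 stand at 18.1% and 85.3%, and those of female 5 at 68.3% and 45.8%.

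The highest sites of each female varied in what the repeats showed, and those of females 4 and 5 did not all follow the shares over their whole sets. The highest site of female 2, on chromosome 7, minus strand, position 1726276, had 3027 CPM in it, 16.2 to 47.1 CPM in the other females, and 13.5 and 17.9 CPM in the repeats. Repeat 1 thus lay below all 6 females and repeat 2 above female 1 alone. Its site on chromosome 10, minus strand, position 3539358, had 1706 CPM in female 2 and 4.53 to 52.4 CPM in the others, and stood at 0 in repeat 1 and 232 CPM in repeat 2. The second of these thus had counts in 1 repeat alone. On chromosome 6, minus strand, position 1583225, female 5 had 1951 CPM, the other females 0 to 21.8, and the repeats 102 and 80.5 CPM, above all other animals in both. Female 4 had 4414 CPM on chromosome 6, plus strand, position 33459744, where the other females had 192 to 334 CPM and the repeats 170 and 140 CPM, below all 6. The pool thus stood above the other 5 animals, which the rule holds low, at the first of these 2 sites. At the second it showed the site without the high level of female 4. A further site of female 4, on chromosome 5, plus strand, position 23829178, had 904 CPM in it and 0 to 14.8 CPM in the other females. There the repeats had 0 and 1.33 CPM, in the order of the whole set of female 4. Female 6 had 227 CPM on chromosome 1, minus strand, position 172498421, against 0.206 to 5.0 CPM in the others, and repeat 1 reached 231 CPM and repeat 2 reached 41.2 CPM.

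Some sites were shared by a pair of animals and near absent from the rest. With the same threshold applied to the lower of 2 females, females 3 and 4 shared 85 sites, females 1 and 6 shared 43, females 5 and 6 shared 19 and females 1 and 4 shared 11. Each of the other 11 pairs shared between 0 and 6. Of the 85 sites of females 3 and 4, 34.1% had counts in repeat 1 and 78.8% in repeat 2. Of the 43 sites of females 1 and 6, 30.2% and 55.8% had counts, and 17 were at 0 in both repeats. The shares of both pairs are at full depth, at which repeat 2 is the deeper, so part of each gap can come from depth. On chromosome 3, plus strand, position 43459160, females 1 and 6 had 589 and 645 CPM, females 2 and 3 had 0, females 4 and 5 had 5.34 and 3.91 CPM, and the repeats had 0.900 and 0.738 CPM. Females 3 and 4 also shared traces: at the common depth the sites of female 3 had counts in female 4 for 50.2%, and in the other 4 females for 25.8% to 30.1%. They are the 2 libraries with the largest share of the left-out scaffold, 67.2% and 15.5%, and the part of this in the shared sites was not tested.

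Few start sites could be called different between the pool and the animals. With the repeats summed to 1 sample and set against the 6 females, edgeR's quasi-likelihood test with Benjamini-Hochberg adjustment at 0.05 called 22 of 31056 sites higher in the pool (0.0708%) and 0 lower (0%). At an unadjusted p under 0.05 there were 4099 sites. Here the spread comes from the females alone, and the pool is assumed to vary like 1 animal. The settings below mostly tested other numbers of sites, so their counts are not shares of 1 set. DESeq2 tested 20956 sites, and edgeR 27136 with repeat 1 alone and 32134 with repeat 2 alone. Without female 1, 2 or 6 it tested 36242, 36144 and 30348 sites, and by library totals 31056. DESeq2 called 202 higher and 954 lower. Without female 3, edgeR called 607 of 33319 sites higher (1.82%) and 1367 lower (4.1%). The count of lower sites thus moved both with female 3 and with the tool. With each pool repeat alone against the 6 females, repeat 1 gave 14 higher and 0 lower, and repeat 2 gave 21 higher and 1 lower. Without female 1, 2 or 6 in turn, edgeR called 4, 8 and 3 sites higher and 0 lower. Library totals without TMM moved the median log2 difference of all tested sites, pool minus females, from -0.06 to 0.62, and gave 160 higher and 1 lower.

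At 13 of the 22 called sites the highest female was under 1 CPM, at 9 a female had 1 CPM or more, and at 17 both repeats lay above all 6 females. At 19 of the 22 no female reached the level that the filter on low counts asks for, so these passed it through the pool alone, the group in which they are high, and their adjusted p-values are not given as support. Adjusted p-values over the 22 ran from 0.00131 to 0.0439 by edgeR. The largest change was on chromosome 8, minus strand, position 58000987, in a cluster of 321 bases, where all 6 females had 0 counts and the repeats had 800 and 4130 counts, or 360 and 305 CPM. Against a floor of 3 counts over the 6 females, the pool was at least 1698-fold higher. On chromosome 2, minus strand, position 161391732, the females had 0.490, 0.565, 0.416, 0, 1.03 and 0.315 CPM, and the repeats had 542 and 208 CPM, a 462-fold ratio. Poly(A) sites within 20000 bases downstream on the same strand summed to 86.0 to 220 CPM in the 3′-end libraries of the 6 females. On chromosome 7, plus strand, position 115210812, 1 count was seen in female 5 and none in the others, and the repeats had 321 and 37.3 CPM, a pool to female ratio of 1260 (226 to 49802 by counting error). These 3 sites were high in both preparations of the pool. The repeats were nonetheless more than 2-fold apart at 16 of the 22 sites, with repeat 1 the higher at 8 of the 22. A site on the plus strand of the unplaced scaffold NW_016683438.1, position 356845, had 3.15 CPM in repeat 1 and 207 CPM in repeat 2, with 1 count in female 6 alone. On chromosome 1, plus strand, position 160322251, the repeats were close, at 49.0 and 45.4 CPM, with 1 count in female 4 and none in the other 5. A further site of chromosome 1, plus strand, position 178589567, had 1.35 CPM in repeat 1 and 45.3 CPM in repeat 2, with 1 count each in females 3 and 6. At such a site nearly all pool counts come from 1 preparation. Positions 643347, 660908 and 662340 of the unplaced scaffold NW_016683450.1, all on the minus strand, had 6.30, 4.95 and 5.85 CPM in repeat 1, 21.3, 19.3 and 50.9 CPM in repeat 2, and at most 0.970 CPM in any female. All 3 were higher in repeat 2, and no female came near either repeat. The site on chromosome 9, minus strand, position 18376484, had 42.7 and 19.6 CPM in the repeats and 1 count each in females 4 and 5. The other 12 called sites had log2 changes of 3.32 to 8.33.

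**Figure D4:**
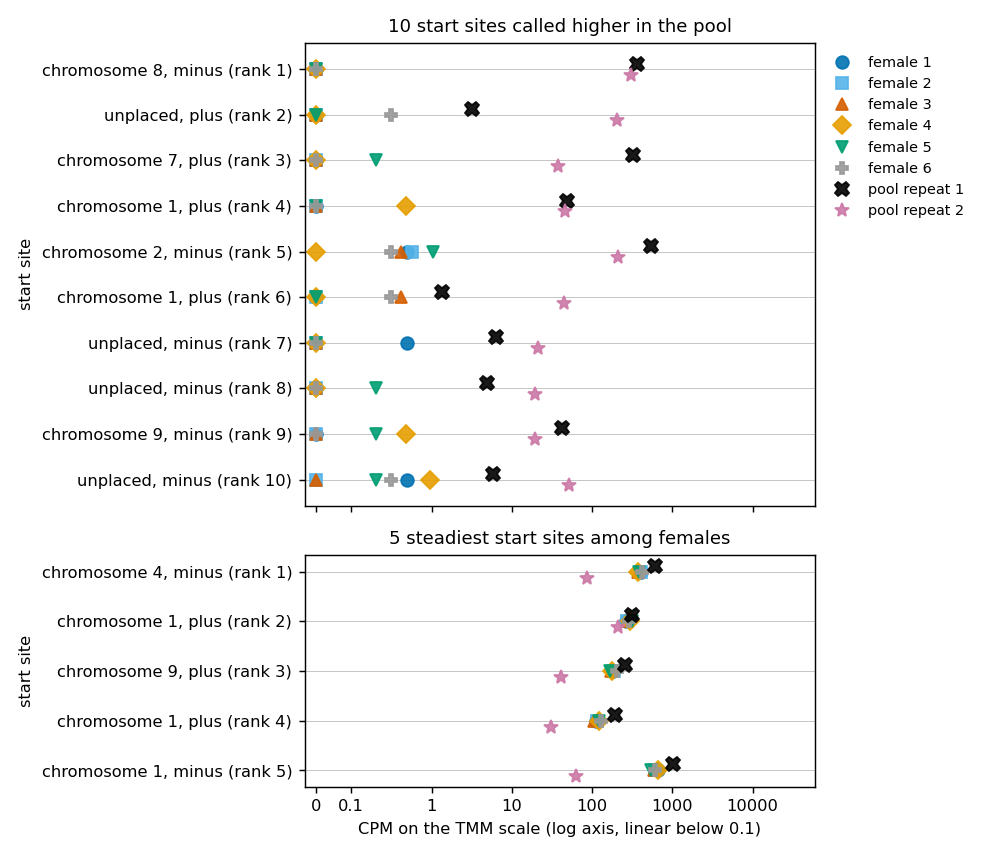
Level of each library (CPM on the TMM scale, log axis that is linear below 0.1) at the 10 sites called higher in the pool with the largest change (upper panel) and at the 5 steadiest sites among females (lower panel). In the upper panel both repeats lie right of all 6 females, and in the lower panel repeat 2 lies left of all 6.

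Among sites at 10 CPM or more in the females or the pool, both repeats lay above all 6 females at 854 of 11298 sites (7.56%) and below all 6 at 943 (8.35%). At 385 further sites repeat 1 lay above and repeat 2 below every female, and at 193 the reverse. A single animal also leaves the range of the others often: female 1 lay above the other 5 at 10.8% and below them at 11.5% of sites, and female 3 above at 25.3% and below at 45.7%. The balance depends on the scaling, which is part of the measurement here: by library totals alone 1906 sites lay above and 498 below, and by RLE factors 968 and 866. Without female 3, 1796 lay above and 3580 below. The sites above had a site within 2000 bases on the same strand in 80.0% of cases and a poly(A) site downstream in 94.7%, against 61.2% and 87.8% of all 11298. The sites below had them in 54.4% and 80.1%. The sites above had a median female mean of 6.33 CPM, and those below of 30.6 CPM, against 20.5 CPM for all, an order that the rule itself favours. Most of the sites above thus reached 10 CPM only through the pool, and those below reached it through the females. Each set passed through the group in which it is high, so neither its number nor its features are given as support. Which sites count as neighbours also depends on the sites listed.

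Stretches with several such sites were also found, and the sums given cover every site of a stretch. A run of 9 sites on chromosome 2, plus strand, from 145055433 to 145062354, 5 of them above all females in both repeats, summed to 321 ± 126 CPM in females (SD, n = 6; 127 to 478) and to 1323 and 719 CPM in the repeats. On the unplaced scaffold NW_016683393.1, 17 sites between 385364 and 397492 on the minus strand, 6 of them such sites, summed to 34.1 ± 18.5 CPM in females (14.1 to 67.9) and to 184 and 232 CPM in the pool. The stretch with the most sites below all females in both repeats, 5 of 25 sites on chromosome 4, plus strand, from 29566809 to 29580897, summed to 111 to 1232 CPM in females and to 70.2 and 166 CPM in the repeats, so repeat 2 lay inside their range as a sum. On the minus strand of the mitochondrial genome, 13 sites between 608 and 8613, 3 of them below all females in both repeats, summed to 2861, 6445, 3545, 9754, 681 and 3263 CPM in the 6 females and to 96.7 and 90.2 CPM in the repeats, so both repeats lay below the lowest animal, while all mitochondrial sites together took 0.624% and 0.702% of the pool counts, inside the 0.499% to 1.72% of females. The shares are of unscaled counts and the sums are on the TMM scale, so they cannot be set against each other directly. Whether the low values held for this run alone or for the mitochondrial genome as a whole was not tested. Of 12 sequence classes, chromosome 5 stood out in the pool, with 9.55% and 9.76% of the counts against 7.36% to 8.07% in females. Without its highest site, at position 61406537, the shares were 8.60% and 8.46% against 6.74% to 7.34%. Chromosomes 4 and 8 were also above all females in both repeats but overlapped them without their highest site. These stretches and the chromosome were picked after their values were seen.

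Of the 4296 female sites missing from the pool, 1532 had counts in 1 female, 1084 in 2, 657 in 3 and 164 in all 6. At a female mean of 10 CPM or more, 66 sites had 0 counts in both repeats, and at that level in the pool 14 sites had 0 in all females. The highest of the missed sites was on chromosome 3, plus strand, position 53656009, a cluster of 7 bases, where female 3 had 6612 CPM, female 4 had 25.7 CPM and the other 6 libraries had 0. On chromosome 7, plus strand, position 115902733, females 3 and 4 had 279 and 240 CPM and again the other 6 libraries had 0. Both sites were thus seen in the same pair of animals and in none of the other 6 libraries used here. On chromosome 6, plus strand, position 81830340, female 1 had 159 CPM, female 5 had 28.2 and female 6 had 287, female 2 had 1 count, and females 3 and 4 and both repeats had 0. Here a site used by 3 animals was absent from the pool. A pair of further narrow clusters, on chromosome 2, plus strand, position 168526550, and chromosome 6, plus strand, position 10991951, had 708 and 382 CPM in female 3, 2.43 and 3.40 CPM in female 4 and 0 in the rest. These clusters repeat the pair of females 3 and 4. Of the 14 sites in the reverse direction, the second highest, on chromosome 8, minus strand, position 48517062, had 8.55 CPM in repeat 1 and 98.3 CPM in repeat 2. The third, on chromosome 4, plus strand, position 90973480, had 71.1 and 0.221 CPM. The next pair, on chromosome 7, plus strand, position 803823, and chromosome 8, plus strand, position 19052759, had 14.4 and 37.1 CPM, and 0.900 and 36.4 CPM. The repeats were more than 2-fold apart at all 4. None of these 4 was called with all 6 females.

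Variation among animals was measured as the SD of log2(CPM + 1) over the 6 females at 9389 sites with a female mean of 10 CPM or more. The median SD was 0.69, and 457 sites (4.87%) had an SD of 2 or more. Female 3 was the most extreme animal at 60.5% of sites. Without it, over 9284 sites, the median SD was 0.41 and 389 sites (4.19%) had an SD of 2 or more. Sites with an SD of 1 or more numbered 2331 (24.8%) with female 3 and 1001 (10.8%) without it. The 500 most variable sites with and without female 3 had 380 in common. Over 6 females the median SD was about the same in all classes of level, between 0.66 and 0.72. Over 5 females it was 0.47 at 10 to 20 CPM and 0.30 at 500 CPM or more. The median SD between the 2 pool repeats was 0.56 and 0.72 in these classes. The repeats' SD exceeded the SD among females at 40.8% of sites, or 58.3% without female 3. An SD of 2 values and an SD of 6 or 5 values are unlike measures. With equal spread the shares would not be even, so no order between repeats and animals is read from them or from the medians.

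The most variable sites were near 0 in some animals and high in others. At the first of the 10 largest, on chromosome 7, minus strand, position 8096997, female 3 had 28915 CPM, female 4 had 366, the other 4 females had 0 to 1.26, and the repeats had 13.5 and 44.3 CPM. Position 5030 of the unplaced scaffold NW_016685997.1, minus strand, had 33038 CPM in female 3, 1476 in female 4, 0.490 to 3.78 in the others, and 9.45 and 86.1 CPM in the repeats. Female 3 was highest at 8 of the 10 sites, and female 4 was second at 7 of these 8. Without female 3 the most variable site was on chromosome 7, plus strand, position 17325842, with 834 CPM in female 4, 136 in female 2, 26.6 in female 3, at most 0.315 in the others, and 0 and 44.7 CPM in the repeats. On chromosome 8, plus strand, position 1118929, the animals fell into 2 sets: females 1 and 2 had 0 counts, females 3 to 6 had 217, 222, 263 and 319 CPM, and the repeats had 348 and 269 CPM, as high as the animals that used it. Position 809078 of the unplaced scaffold NW_016683377.1, plus strand, ran from 0.618 CPM in female 5 over 129 and 177 CPM in females 1 and 6 to 2442, 5149 and 2698 CPM in females 2, 3 and 4, and the repeats had 0 and 9.44 CPM.

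**Figure D5:**
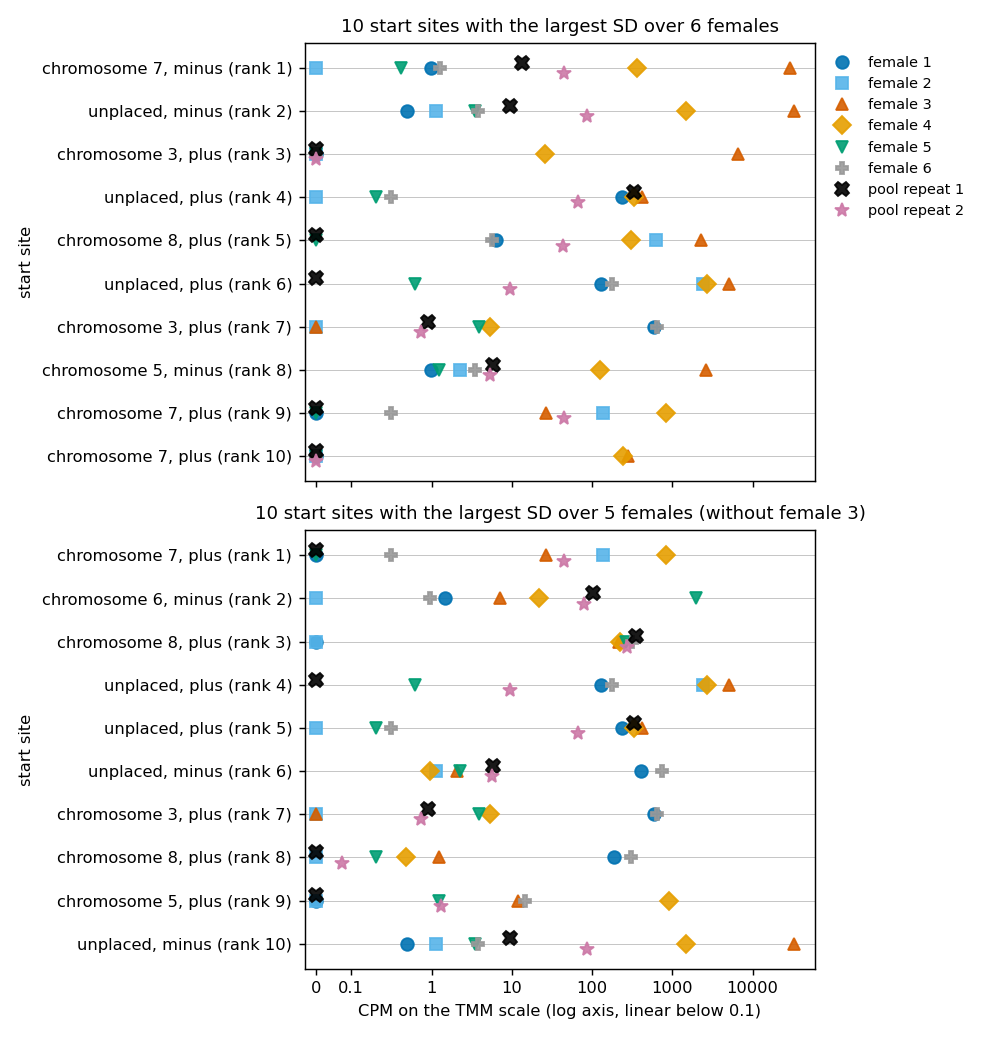
Level of each library (CPM on the TMM scale, log axis that is linear below 0.1) at the 10 sites with the largest SD over all 6 females (upper panel) and over 5 females (lower panel). Points of 1 row reach from 0 or about 1 CPM to over 200 CPM, and females 3 and 4, or females 1 and 6, often stand together at the high end.

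By level rather than variation, the highest site of all was on chromosome 2, minus strand, position 39401987, with 46719, 58654, 9277, 48043, 59375 and 46222 CPM in the females and 27606 and 13926 CPM in the repeats. Both repeats and female 3 lay below the other 5 animals there, and the same held on chromosome 3 at position 81925372, minus strand, with 8241 to 11336 CPM in 5 females, 1618 in female 3, and 2432 and 1534 CPM in the repeats. It also held on chromosome 3, plus strand, position 94955325, with 7226 to 16277 CPM in 5 females, 1699 in female 3, and 3252 and 3161 CPM in the repeats. The site on chromosome 5, plus strand, position 61406537, had 3414 to 16258 CPM in females and 8713 and 9505 CPM in the repeats, and position 182 of the unplaced scaffold NW_016686743.1, plus strand, had 4519 to 13057 CPM in females and 6191 and 14012 CPM in the repeats. None of these 5 passed the test with all 6 females, with adjusted p-values of 0.394 to 0.868 by edgeR. At 39401987, 81925372 and 94955325 the log2 differences, pool minus females, were -1.54, -2.42 and -1.68 with all 6 females. Without female 3 they were -1.77, -2.66 and -1.93. Leaving out female 3 removes the animal that lay low with the pool at these sites, so the values without it are not given as support.

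The 500 most variable sites differed from the rest in form and place. Their median width was 93 bases against 287 bases for all 9389, 16.6% lay on unplaced scaffolds against 9.67%, and 64.2% had a poly(A) site within 20000 bases downstream against 87.0%. Repeat 1 lay inside the range of the 6 females at 85.6% of the 500 and repeat 2 at 92.6%, against 68.2% and 57.2% of all 9389 sites, a share that a wide female range alone makes large. Their median level was 26.4 CPM as the female mean but 1.80 and 5.61 CPM in the repeats, and 168 and 80 of the 500 were at 0 in repeat 1 and repeat 2. A mean over animals is raised by the highest of them at such sites. At position 8096997 of chromosome 7 it was 4881 CPM, against a female median of 1.12 CPM. No value of a single female stands beside those of the repeats, so a loss in the pool cannot be read from them.

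The study's design states that the same 6 females were also read at their poly(A) ends by WTTS-seq, a readout that did not enter the choice of sites. The comparison, which takes equal numbers in both assays as 1 animal, asks whether the female with the highest start site also has the highest poly(A) counts downstream. Of 314 highly variable start sites with poly(A) sites within 20000 bases downstream, the female of the same number was highest at both ends at 48 (15.3%), and over all 7887 such sites at 16.9%. An even draw among 6 animals gives 16.7%. Without female 3 the shares were 17.5% and 20.1%, against 20% for an even draw among 5 animals. Across 6033 sites, deviations from the mean of the females at the start and poly(A) ends correlated between -0.033 and 0.035 for libraries of the same number, and in 0 of 6 was the own number the closest. The highest value of all pairs was 0.166, between start library 5 and poly(A) library 3, and the lowest was -0.109, between start library 2 and poly(A) library 3. These correlations are across sites of the same libraries and are given as a description. Whether numbers stand for the same animal in both assays was not tested by any other measure.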

How the data were processed

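WTSS-seq libraries of 6 females and 2 repeat libraries of a pool of 3 females were analysed. Both tables used, of start sites and of poly(A) sites, hold raw counts as the authors deposited them, per the file headers and whole-number values. Aligner, clustering method and genome build: not given in the sources used here. Another 13 columns of males and CAGE were not used. Positions were shifted by 1 to count from 1. One scaffold with up to 67.2% of a library was left out. Counts were tested with edgeR 4.0.16 in R 4.3.3 (quasi-likelihood test, TMM, filterByExpr, Benjamini-Hochberg at 0.05), with the pool repeats summed, since they are 1 sample, and DESeq2 1.42.0 as an alternative. The tests were tried on simulated data first. The depth was 1863504 to 9049977 counts per library, and Wilson intervals (95%) and floors of 3 counts cover counting error only. Expected site numbers at a common depth were drawn without replacement. A library that is a single animal shares its error with its preparation. Sites named are the 10 largest calls per direction beyond all females, the 5 highest, the 10 most variable, the highest 2 of each female, the 5 steadiest at 100 CPM or more, and the 5 highest with 0 counts in either group, and not every one is printed. Sites, members and thresholds were chosen with earlier results of these data known. Variable sites without female 3, sites shared by pairs, runs of sites, the split by level of the repeats, the scaling of the range counts and the subset listed by other libraries were added after the values were seen.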

Additional observations from a re-analysis of the deposited data

Results flagged for a closer look

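A value far from the other 5 females, by a gap test on groups of 6 that flags about 1 group in 20 by chance, was found at 1829 of 9389 sites (19.5%), and in 1226 of these the animal apart was female 3. Many of the sites named here were chosen for such a pattern.

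Female 3 was apart and high at 28915 CPM on chromosome 7, position 8096997, at 33038 CPM on an unplaced scaffold, position 5030, and at 6612 CPM on chromosome 3, position 53656009. It was also apart at 2271 CPM on chromosome 8, position 89158342, at 2664 CPM on chromosome 5, position 143874734, at 708 CPM on chromosome 2, position 168526550, and at 382 CPM on chromosome 6, position 10991951. It was apart and low at 2 of the highest sites, at 9277 CPM on chromosome 2, position 39401987, and at 1618 CPM on chromosome 3, position 81925372. Its share of counts on the left-out scaffold was 67.2%. Of the counts left, chromosome 1 held 11.1% and chromosome 2 held 12.3%, both low, and chromosome 9 held 7.47% and the unplaced scaffolds held 13.5%, both high.

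Female 4 was apart at 834 CPM on chromosome 7, position 17325842, at 904 CPM on chromosome 5, position 23829178, and at 4414 CPM on chromosome 6, position 33459744. Female 5 was apart at 1951 CPM on chromosome 6, position 1583225, and at 1752 CPM on chromosome 1, position 82899635. Female 2 was apart at 16258 CPM on chromosome 5, position 61406537, at 3027 CPM on chromosome 7, position 1726276, and at 1706 CPM on chromosome 10, position 3539358. Female 1 was apart at 115 CPM on chromosome 7, position 44431355, at 36.8 CPM on chromosome 1, position 155179272, and at 162 CPM on chromosome 3, position 111107577. Female 6 was apart at 273 CPM on chromosome 9, position 49728, and at 227 CPM on chromosome 1, position 172498421.

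At 5 sites called higher in the pool, the animal apart rests on 1 count. These were female 6 at 0.315 CPM (unplaced, position 356845), female 5 at 0.206 CPM (chromosome 7, position 115210812), female 4 at 0.485 CPM (chromosome 1, position 160322251), female 1 at 0.490 CPM (unplaced, position 643347) and female 5 at 0.206 CPM (unplaced, position 660908).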

How the results depend on the processing

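Depth limits what absence means: a site at 0 in pool repeat 1 may hold up to 3 of 1863504 counts. The count of sites called rests on the setting, and the cause was not tested. Settings also differed in the number of sites tested. It was 31056 in the main fit and by library totals, 67946 without the filter and 20956 by DESeq2. With the pool libraries separate it was 22145, and with libraries left out 23920 to 36242. Against 22 higher and 0 lower, library totals alone gave 161 calls (160 higher, 1 lower), no filter on low counts gave 117 (116 and 1), the pool libraries as separate samples gave 49 (46 and 3), and DESeq2 gave 1156 (202 and 954). Leaving out libraries gave 3 to 3655 calls, with 3 to 944 higher and 0 to 2711 lower, the highest without female 3 and pool repeat 1. The replicate block (pool libraries separate, with the replicate number as a block) gave 0 calls, 0 of them higher, with 3540 sites at an unadjusted p under 0.05. Numbers pair only females 1 and 2 with the pool repeats, the labels tie these to nothing shared, and their deviations correlated at -0.068 and 0.050. RLE factors, the scaffold kept in and a fold minimum of 1.5 kept the count within 1.5 times.

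The lead of pool repeat 1 over the female mean, 5235 sites, became 1659 at full depth, 6883 with the scaffold kept in and 1775 among sites listed by other libraries. The lead of repeat 2, 11164 sites, became 15162 at 3 counts or more, 13092 at 5 or more, 13296 at full depth, 12928 with the scaffold kept in and 2457 among sites listed by other libraries. Female sites absent from the pool went from 6.59% to 9.14% at 3 counts and 11.6% at 5, and pool sites absent from females from 4.35% to 14.9% and 26.2%. Among sites listed by other libraries, at 1 count, they were 9.84% and 4.55%. Leaving out 1 library gave 5.86% to 26.2% and 2.19% to 6.90%. Sites of 1 female numbered 1445 at a fold of 5, 282 at a fold of 20 and 326 at 20 CPM. Sites with both repeats above all females numbered 1675 at 5 CPM, 149 at 50 CPM, 1906 by library totals and 883 to 2998 without 1 library, and those below 334 at 50 CPM, 498 by library totals and 958 to 3580 without 1 library. With a pseudocount of 5, 141 sites had an SD of 2 or more and the median SD was 0.58. At 50 CPM, 144 sites did. Without 1 female the median SD was 0.41 to 0.73, and 15.7% to 20.6% of variable sites had the same highest female at both ends, where an even draw among 5 gives 20%. The distance between the repeats stayed at 0.82 to 0.83 without 1 female. Detection per library and sites of 1 female are given for each pool repeat apart, so leaving out a repeat changes neither.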
